A study of Homo sapiens with 6 samples.

Results

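The HOX genes encode the homeodomain transcription factors that lie in 4 clusters, HOXA to HOXD. They were chosen as the protein-coding genes of the count files whose symbol is HOXA, HOXB, HOXC or HOXD followed by a number, which gave 39 of the 60708 gene identifiers. Of these, 11 lie in HOXA, 10 in HOXB, 9 in HOXC and 9 in HOXD. The cells were U2OS, an established human osteosarcoma line, without a genetic change named in the labels. The 3 control libraries came from cells given the solvent DMSO, and the 3 PARGi libraries from cells given 25 µM PDD00017273, both for 4 days. PDD00017273 inhibits PARG, the enzyme that takes chains of poly(ADP-ribose) off proteins. Total RNA was sequenced in stranded libraries. The submitters call the triplicates biological, and the p-values measure the spread between these 3 libraries of 1 line per group.

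In the embryo, HOX genes are switched on along the head-to-tail axis in the order in which they lie in their cluster, and adult and tumour cells keep a part of that pattern. Genes with the same number in different clusters, called paralogues, descend from 1 ancestral gene and have similar homeodomains. Polycomb complexes keep silent clusters closed, and MLL-type methyltransferases with their partners keep active ones open. HOX proteins bind DNA together with cofactors of the PBX and MEIS families.

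Depth ran from 60286931 to 80605145 counts per library, and the HOX genes together summed to 329.5 to 333 CPM in DMSO and 338 to 345 CPM in PARGi, where CPM are counts scaled to each library's total after TMM. In each library 38 or 39 of the 39 genes had at least 1 count. Of the osteoblast and mesenchymal markers, COL1A1, VIM, SPARC and FN1 were abundant, while TWIST1, SP7 and BGLAP had group means under 0.1 CPM. The summed CPM of these 11 markers was 10543 to 11401 in DMSO and 10660 to 10745 in PARGi. The 7 epithelial markers summed to 31.6 to 33.0 CPM in DMSO and 22.3 to 25.5 CPM in PARGi, and KRT14 held most of that sum. The 6 blood markers summed to 1.36 to 1.59 CPM in DMSO and 1.38 to 1.55 CPM in PARGi, with 4 of them under 0.1 CPM in DMSO. Of the 8 tested osteoblast and mesenchymal markers, 3 fell and 1 rose (50% called). Of the 5 tested epithelial markers, 1 fell and 1 rose (40% called). Of all tested genes 24.3% were called, and of protein-coding ones 29.8%. RUNX2, a regulator of bone formation, fell from 83.3 to 69.0 CPM (edgeR adjusted p = 4.96e-08), and KRT14, a keratin, from 22.4 to 14.3 CPM (edgeR adjusted p = 1.33e-08). SPARC fell from 1677 to 1583 CPM (edgeR adjusted p = 0.00653), a call lost without PARGi replicate 3 (0.0528). In the same lists ALPL, the alkaline phosphatase of bone, rose from 4.68 to 5.52 CPM (edgeR adjusted p = 0.0364), and CDH1, the epithelial cadherin, from 0.718 to 1.14 CPM (edgeR adjusted p = 0.0104). The ALPL call was lost in 8 of 15 alternatives, among them without DMSO replicate 1 or 3 and PARGi replicate 1 or 3 (adjusted p of up to 0.147), and the CDH1 call without PARGi replicate 3 (0.0785). The part of these differences in the HOX results was not tested.

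Promoter windows, the 250 bases before an annotated start, were taken from RefSeq on GRCh38.p14 and were used for 20 of the 39 genes, in 26 distinct windows. None of the 5 HOXB genes that rose in PARGi is among the 20. The windows of 2 genes on chromosome 7, HOXA9 and HOXA11, are printed because both genes were lower in PARGi, 1 window holds the CCAAT box and the other does not. Both lie on the minus strand and read 5′ to 3′ towards the start, with the CCAAT box in capitals. The HOXA9 window spans chr7:27165538-27165787 and the HOXA11 window chr7:27185233-27185482.
HOXA9: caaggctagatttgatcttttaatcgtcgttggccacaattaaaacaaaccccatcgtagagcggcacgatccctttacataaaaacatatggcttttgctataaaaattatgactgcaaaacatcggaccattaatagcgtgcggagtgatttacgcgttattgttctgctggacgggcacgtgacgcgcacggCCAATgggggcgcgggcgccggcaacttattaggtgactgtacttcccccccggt
HOXA11: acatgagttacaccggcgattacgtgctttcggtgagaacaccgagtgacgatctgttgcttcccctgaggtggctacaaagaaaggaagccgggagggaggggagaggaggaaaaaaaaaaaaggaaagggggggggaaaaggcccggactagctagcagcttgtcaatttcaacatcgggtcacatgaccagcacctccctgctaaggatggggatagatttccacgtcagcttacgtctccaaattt
By annotated span on GENCODE 29, the HOXA9 window lies inside HOXA9 itself. The HOXA11 window lies inside the span of HOXA11-AS, which is read in the opposite direction. The CCAAT box, the letters CCAAT on either strand, was found in 17 of the 26 HOX windows (65.4%) and in 32% of all 34943 windows of that length. CACGTG, the E-box, was in 8 HOX windows (30.8%) against 6.32% of all windows. GGGCGG, the GC box, was in 13 HOX windows (50%) against 42.5%, and TATAAA, the TATA box, in 5 (19.2%) against 10.8%. TGATNNAT, a motif that HOX and PBX proteins bind together, was in 3 HOX windows (11.5%) against 6.49%. No match of any of these 5 motifs overlapped a match of another in a HOX window. The HOX windows held a median of 19.5 CpG dinucleotides against 11 over all windows, at a similar GC content (58.8% and 58%). Among the 5 windows of HOX genes lower in PARGi, 3 held the CCAAT box, and 12 of the 19 windows of tested genes that did not pass the test held it. These shares describe letters in the windows, and several windows belong to the same gene.

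Levels were compared between genes as CPM per kilobase of exonic length. In DMSO, 23 of the 39 HOX genes reached 1 CPM per kilobase: 6 in HOXA, 6 in HOXB, 7 in HOXC and 4 in HOXD. A threshold of 0.5 CPM per kilobase took in 1 more gene, HOXB8. Of the summed level per kilobase of all HOX genes in DMSO, HOXB held 42.4% ± 0.768 (SD, n = 3), HOXC 33.2% ± 0.285, HOXA 13.3% ± 0.581 and HOXD 11.1% ± 0.501. In PARGi the HOXB share was 47.0% ± 0.330, the HOXC share 31.1% ± 0.327, the HOXA share 11.4% ± 0.495 and the HOXD share 10.5% ± 0.176. So HOXB and HOXC made up most of the HOX messenger RNA in both groups. The bulk libraries cannot tell fewer cells that express a gene from less RNA per cell.

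The level per kilobase in DMSO was highest for HOXB7, at 18.7 ± 0.859 CPM per kilobase (SD, n = 3), which lies at the 82.6th percentile of the tested protein-coding genes. HOXB9 followed at 16.8 ± 0.405 CPM per kilobase, and the ranges of HOXB7 and HOXB9 over the 3 DMSO libraries did not overlap. HOXC13, known for its role in hair and nail formation, came next at 12.1 ± 0.158 CPM per kilobase, and HOXC9 stood at 7.85 ± 0.228. These 4 genes were set apart from each other by more than their spread. HOXC10, at 6.54 ± 0.142 CPM per kilobase, was likewise separate in DMSO from its neighbours in the order. Below it, several neighbours could not be separated: HOXD10 (5.27 ± 0.128 CPM per kilobase) and HOXB3 (5.18 ± 0.114) differed by less than their SDs. Likewise HOXB6 (4.92 ± 0.420 CPM per kilobase) and HOXC11 (4.90 ± 0.117) were within their spread, as were HOXA11 (4.54 ± 0.160), HOXD9 (4.53 ± 0.163) and HOXB13 (4.40 ± 0.265). The first pairs depend on the length used, which these SDs do not cover. Per kilobase of exon that no other counted gene shares, HOXD10 stood at 6.34 CPM and HOXB3 at 5.62. By that length HOXB6 stood at 5.90 CPM, above HOXB3, and HOXC11 at 4.90. HOXA10, at 3.85 ± 0.0193 CPM per kilobase, was next to HOXA11 the most abundant gene of its cluster.

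**Figure D1:**
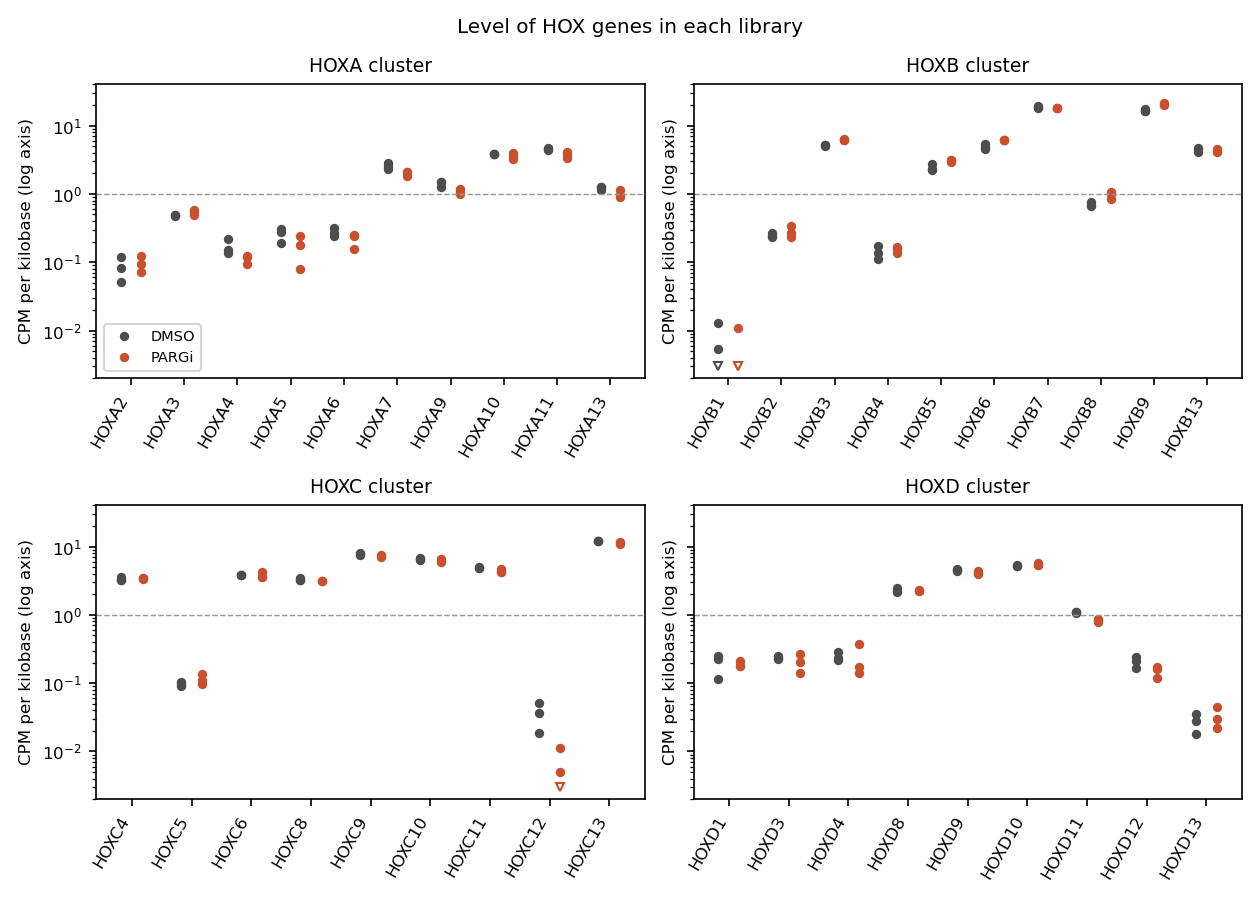
Level of 38 of the 39 HOX genes in each library, in CPM per kilobase of exonic length on a log axis, ordered by cluster and number; points are the 3 DMSO and 3 PARGi libraries, open triangles at the bottom are libraries with 0 counts, and the dashed line marks 1 CPM per kilobase. HOXB7 and HOXB9 stand highest, and genes under 1 CPM per kilobase lie between genes above it inside HOXB and HOXC.

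Genes at low level lay beside or between genes at high level inside a cluster, as the plot of levels by library shows. In HOXA, the run HOXA2 to HOXA6 stood at 0.0849 to 0.485 CPM per kilobase in DMSO, next to HOXA7 at 2.55 CPM per kilobase. In HOXB, HOXB4, known for expanding blood stem cells, stood at 0.140 CPM per kilobase between HOXB3 at 5.18 and HOXB5 at 2.43. In HOXC, HOXC5 stood at 0.0966 CPM per kilobase between HOXC4 at 3.32 and HOXC6 at 3.81, and HOXC12 at 0.0357 between HOXC11 at 4.90 and HOXC13 at 12.1. The order here is that of the gene numbers: by annotated span, HOXB4 and HOXB5 lie inside HOXB3, and HOXC5 inside HOXC4. In HOXD the middle of the cluster was on: HOXD8 to HOXD11 ran from 1.08 to 5.27 CPM per kilobase, HOXD1 to HOXD4 from 0.195 to 0.249, HOXD12 stood at 0.206 and HOXD13 at 0.0271. HOXB1, which patterns the hindbrain, was the lowest of all, with 0, 2 and 1 counts in the 3 DMSO libraries. Exons shared on the strand make some of these lengths uncertain: per kilobase of exon that no other counted gene shares, HOXC5 came to 0.241 CPM and HOXA4 to 0.245 CPM, both still under 1.

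By paralogue group, the 4 group 9 genes held the largest share of the summed level per kilobase in DMSO, 24.2%. Group 7, which is HOXA7 and HOXB7, held 16.8%, group 13 14.0% and group 10 12.4%. Groups 2 and 12 were lowest, at 0.265% and 0.191%. The group 9 sum was 30.6 ± 0.536 CPM per kilobase in DMSO and 33.3 ± 0.992 in PARGi. The group 11 sum was 10.5 ± 0.288 CPM per kilobase in DMSO and 9.01 ± 0.595 in PARGi. Within group 9 the members did not go the same way: HOXB9 rose and HOXA9 fell in the tests given below.

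With the inhibitor, 5 HOXB genes rose and 4 HOXA genes fell. Of the 36 HOX genes with enough counts to test, 12 passed an adjusted p of 0.05 in edgeR's quasi-likelihood test (33.3%), where 24.3% of all 20409 tested genes and 29.8% of the tested protein-coding genes passed. The 5 that rose (13.2% of all tested genes rose) were HOXB3, HOXB5, HOXB6, HOXB8 and HOXB9. The 7 that fell (11.0% of all tested genes fell) were HOXA7, HOXA9, HOXA11, HOXA13, HOXC11, HOXC13 and HOXD11. Of the 14504 tested protein-coding genes, 2547 rose and 1769 fell. By cluster, 4 of 11 tested HOXA genes fell, 5 of 9 HOXB genes rose, 2 of 8 HOXC genes fell and 1 of 8 HOXD genes fell, with 0 calls the other way in each cluster. The median log2 fold change over the 36 tested HOX genes was -0.051, beside -0.0070 over all tested genes. It was -0.28 in HOXA, 0.26 in HOXB, -0.063 in HOXC and -0.11 in HOXD. The PARGi and DMSO libraries did not overlap for 16 of the 36 genes, among them all 12 called ones. The groups did not overlap for 38.0% of all tested genes, and for 6327 of the 14504 tested protein-coding genes, a similar share to that of the HOX genes. Of the 16, 5 were higher in PARGi (19.8% of all tested genes) and 11 lower (18.2%). An unadjusted p under 0.05 was reached by 13 HOX genes, the 12 called and HOXD9. It was reached by 35.0% of all tested genes and by 5994 of the 14504 tested protein-coding ones. DESeq2 called 9 HOX genes, the same number higher (5) but 4 lower. Fewer were lower when 1 library was left out: 3 without DMSO replicate 1, 4 without DMSO replicate 2, 3 without PARGi replicate 2 and 3 without PARGi replicate 3, and without PARGi replicate 3 the calls came to 7 in all.

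**Figure D2:**
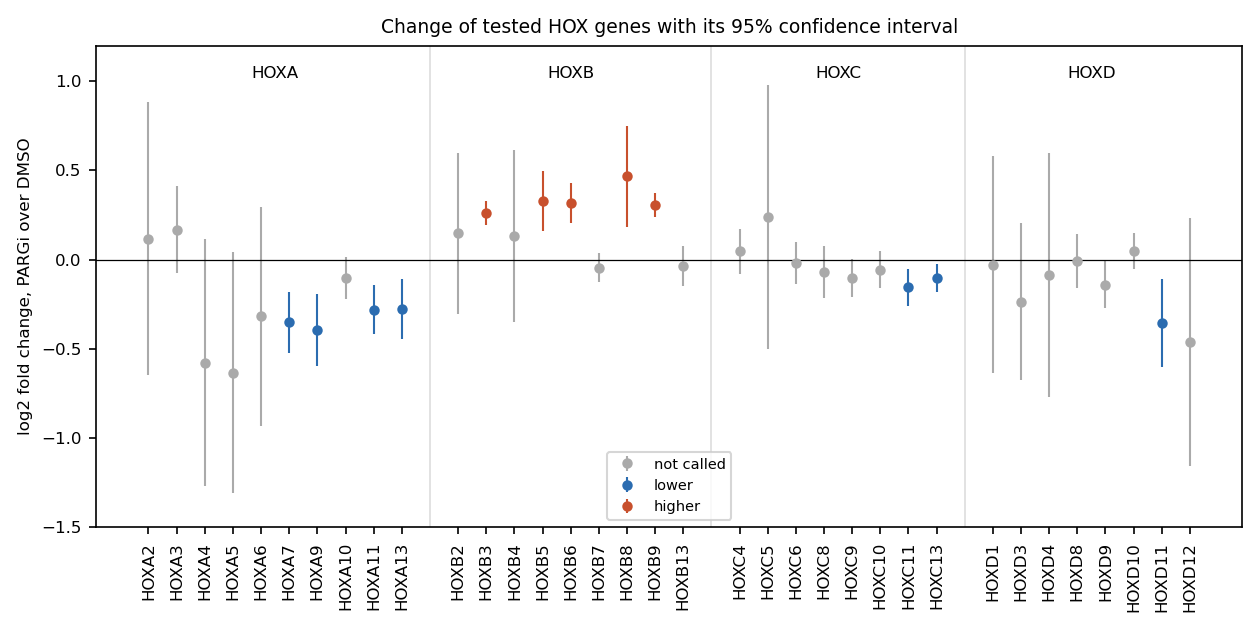
log2 fold change of PARGi over DMSO for 35 of the 36 tested HOX genes, by cluster and number, from edgeR; bars are 95% confidence intervals and colours show the call at an adjusted p of 0.05. The 5 genes called higher are all in HOXB, the 7 called lower are in HOXA, HOXC and HOXD, and HOXB7 and HOXB13 lie near 0.

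The summed levels of the clusters differed by modest amounts between the groups. HOXB, on chromosome 17 from 48528526 to 48729178, summed to 144, 145 and 150 CPM in the DMSO libraries and to 168, 169 and 167 CPM in the PARGi libraries, with means of 146 ± 3.06 and 168 ± 1.19 CPM (SD, n = 3, log2 difference 0.20). HOXA, on chromosome 7, summed to 51.3, 49.7 and 47.9 CPM in DMSO and 46.0, 41.5 and 43.9 CPM in PARGi, a change in the mean of -11.7%. In both clusters the groups did not overlap, and the directions were opposite. HOXC, on chromosome 12 from 53938765 to 54056030, summed to 101, 103 and 104 CPM in DMSO and 99.7, 97.6 and 95.2 CPM in PARGi, a change of -5.10% without overlap. HOXD, on chromosome 2 from 176092891 to 176190907, summed to 32.9, 34.1 and 31.6 CPM in DMSO and 31.5, 32.2 and 31.6 CPM in PARGi, and there the groups overlapped. These sums are a description and were not tested.

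**Figure D3:**
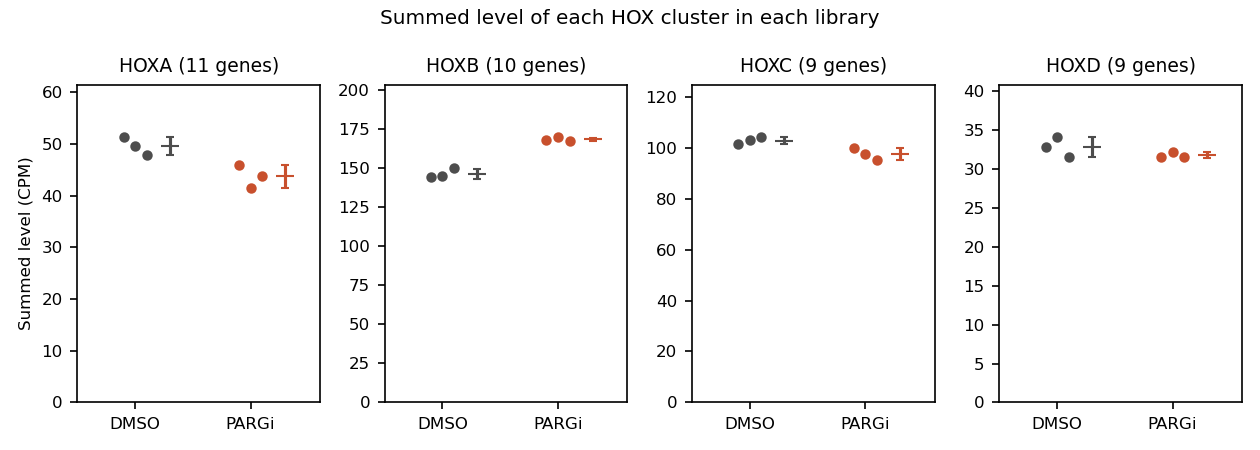
Summed CPM of the members of each HOX cluster in the 3 DMSO and 3 PARGi libraries; points are libraries and bars the mean ± SD. HOXB lies above its DMSO values in every PARGi library (167 CPM or more against 150 or less), HOXA and HOXC lie below theirs, and HOXD overlaps.

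In HOXB, HOXB9, a gene of the thoracic region, showed 42.9, 44.6 and 42.7 CPM in the DMSO libraries and 52.2, 55.3 and 53.6 CPM in the PARGi libraries. All 3 PARGi libraries were above all DMSO libraries, a rise of 23.9% with a 95% interval of 18.2% to 29.8% (log2 fold change 0.31, SE 0.0325, edgeR adjusted p = 1.4e-07). HOXB3, of the anterior part of the cluster, showed 38.7, 37.7 and 39.4 CPM in DMSO and 46.3, 47.1 and 45.6 CPM in PARGi. It too was separate between the groups and rose, with an interval of 14.5% to 25.7% (log2 fold change 0.26, SE 0.0325, edgeR adjusted p = 1.61e-06). HOXB9 lies at chr17:48621159-48626356 and HOXB3 at chr17:48548870-48604912 on the minus strand.

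HOXB6 showed 12.7, 11.8 and 14.0 CPM in DMSO and 15.9, 16.2 and 15.9 CPM in PARGi. Its PARGi libraries were closer to each other than the DMSO libraries were, and the log2 fold change was 0.32 (SE 0.0547, edgeR adjusted p = 0.000126). HOXB6 and HOXB3 share 433 exonic bases on the strand, 16.6% of HOXB6 and 5.81% of HOXB3, so reads in that stretch could belong to either. HOXB5 showed 4.66, 4.59 and 5.62 CPM in DMSO and 6.44, 5.97 and 6.37 CPM in PARGi. The groups were separate, with a log2 fold change of 0.33 (SE 0.082, edgeR adjusted p = 0.00451). HOXB8, at the lowest level of the 5, showed 1.54, 1.37 and 1.41 CPM in DMSO and 2.03, 1.72 and 2.21 CPM in PARGi. Its log2 fold change was 0.47 (SE 0.137, edgeR adjusted p = 0.0142), and without PARGi replicate 3 the adjusted p was 0.104. The other 4 higher calls held in all 15 alternatives run.

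Not every abundant HOXB gene rose. HOXB7, whose number falls between HOXB6 and HOXB8, showed 28.5, 27.3 and 30.0 CPM in DMSO and 28.0, 27.8 and 27.4 CPM in PARGi. Its annotated span holds those of HOXB8 and HOXB9. The HOXB7 groups overlapped, and the interval of the change ran from -8.35% to 2.61% (log2 fold change -0.044, SE 0.0394, edgeR adjusted p = 0.465), which leaves out the 14.5% lower bound of HOXB3 and the 18.2% of HOXB9. HOXB13, which lies apart from the rest of its cluster and is known as a prostate factor, showed 14.3, 16.1 and 15.5 CPM in DMSO and 15.8, 14.1 and 14.8 CPM in PARGi, with an interval of -9.78% to 5.27% (edgeR adjusted p = 0.676). The ratio of HOXB9 to HOXB7 in CPM was 1.51, 1.63 and 1.43 in the DMSO libraries and 1.86, 1.99 and 1.96 in the PARGi libraries. This ratio uses no scaling between libraries and did not overlap between the groups. The ratio of HOXB6 to HOXB7 was 0.447 ± 0.0175 (SD, n = 3) in DMSO and 0.576 ± 0.00809 in PARGi, and that of HOXB9 to HOXB13 was 2.85 ± 0.138 in DMSO and 3.61 ± 0.312 in PARGi. Per kilobase, HOXB7 stood above HOXB9 in each DMSO library and below it in each PARGi library. HOXB2 (log2 fold change 0.15) and HOXB4 (0.13), both under 0.7 CPM, did not pass the test, at edgeR adjusted p = 0.682 for HOXB2 and 0.736 for HOXB4.

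In HOXA, the genes that fell lie in the part of the cluster from HOXA7 to HOXA13. HOXA7, of the trunk region, showed 6.73, 5.61 and 6.10 CPM in DMSO and 5.002, 5.06 and 4.43 CPM in PARGi. The groups were separate, and the log2 fold change was -0.35 (SE 0.0826, edgeR adjusted p = 0.00281). HOXA9, which acts with MEIS1 in acute leukaemia, showed 4.51, 4.59 and 3.79 CPM in DMSO and 3.00, 3.19 and 3.53 CPM in PARGi. Its log2 fold change was -0.39 (SE 0.098, edgeR adjusted p = 0.00444), again without overlap. HOXA11, which shapes the forearm and the uterus, showed 10.7, 10.6 and 10.1 CPM in DMSO and 9.40, 7.75 and 8.77 CPM in PARGi. It fell by 0.28 on the log2 scale (SE 0.066, edgeR adjusted p = 0.0028), and PARGi replicate 2 was the lowest library. The HOXA7, HOXA9 and HOXA11 calls held in all 15 alternatives. HOXA13, which shapes the hand and foot, showed 6.35, 6.36 and 5.79 CPM in DMSO and 5.77, 4.65 and 4.91 CPM in PARGi. Its PARGi replicate 1 came close to the lowest DMSO library, with a log2 fold change of -0.28 (SE 0.0825, edgeR adjusted p = 0.016). The HOXA13 call was lost without DMSO replicate 1, PARGi replicate 2 or PARGi replicate 3, with adjusted p of up to 0.109.

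HOXA10, a gene of the lumbar region and the uterus, lies between HOXA9 and HOXA11 and did not pass the test. It showed 14.3, 14.3 and 14.2 CPM in DMSO and 14.7, 12.2 and 13.1 CPM in PARGi, so PARGi replicate 1 was above all DMSO libraries. Its log2 fold change was -0.10 with a 95% interval of -14.2% to 1.16% (edgeR adjusted p = 0.215). Without PARGi replicate 1 the adjusted p was 0.0349. HOXA4 and HOXA5 had log2 fold changes of -0.58 and -0.63 at under 0.5 CPM, with edgeR adjusted p = 0.231 and 0.175. Their intervals, -58.5% to 8.26% and -59.7% to 3.16%, were too wide at this depth to show a change of the size seen in HOXA7. HOXA2 and HOXA3 had log2 fold changes of 0.12 and 0.17 and HOXA6 one of -0.32, with edgeR adjusted p from 0.329 to 0.861. Of the exonic length of HOXA7, 62.5% lies opposite HOXA-AS3, which had 25 counts over the 6 libraries, and 31.1% of HOXA11 lies opposite HOXA11-AS, which had 435.

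**Figure D4:**
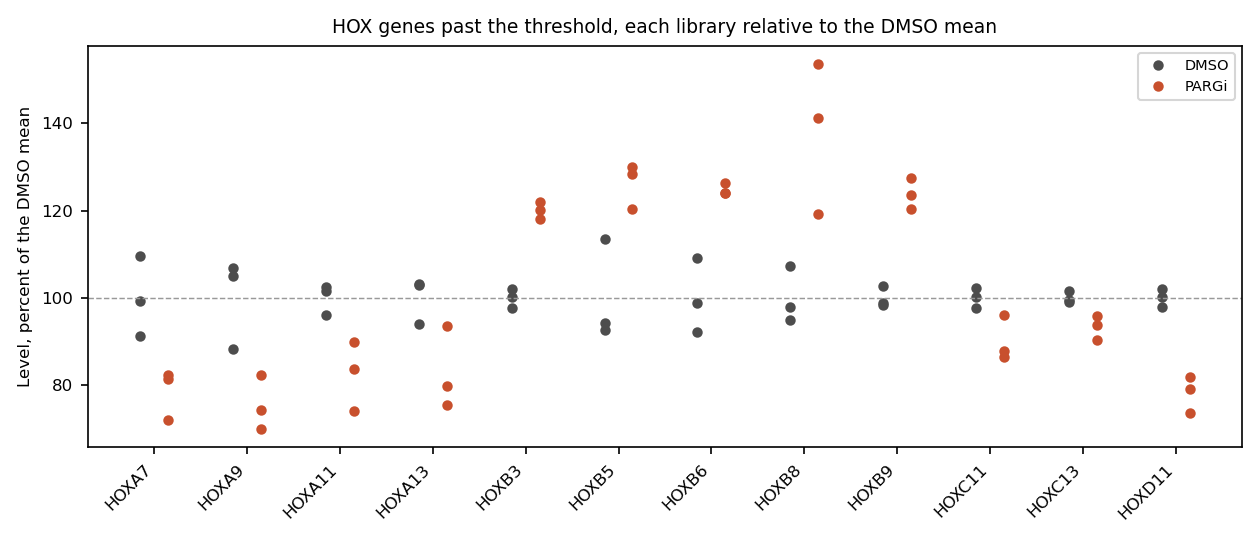
CPM of each of the 12 called HOX genes in each library, as a percentage of the DMSO mean of that gene; points are the 3 DMSO and 3 PARGi libraries. For all 12 genes the groups do not overlap, and HOXC13 (a change of -6.84%) has the smallest shift and HOXB8 (38.2%) the largest.

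In HOXC, both genes that fell lie at the posterior end. HOXC11, a paralogue of HOXA11, showed 16.0, 16.4 and 15.6 CPM in DMSO and 15.4, 14.1 and 13.8 CPM in PARGi. It fell by 0.15 on the log2 scale (SE 0.0501, edgeR adjusted p = 0.0273). HOXC13 showed 28.96, 29.1 and 29.7 CPM in DMSO and 28.0, 27.4 and 26.4 CPM in PARGi. Its log2 fold change of -0.10 (SE 0.0375, edgeR adjusted p = 0.0497) lay at the threshold, and the change of -6.84% was the smallest of the 12. The HOXC11 call was lost under DESeq2 and without DMSO replicate 1, DMSO replicate 2, PARGi replicate 2 or PARGi replicate 3, with adjusted p of up to 0.152. The HOXC13 call was lost in 8 of the 15 alternatives, with adjusted p of up to 0.231, among them DESeq2 and each library left out other than PARGi replicate 1. HOXC9 showed 12.8, 13.1 and 13.6 CPM in DMSO and 12.0, 12.7 and 12.2 CPM in PARGi, separate between groups but not past the threshold (log2 fold change -0.10, edgeR adjusted p = 0.157). The other tested HOXC genes, HOXC4, HOXC5, HOXC6, HOXC8 and HOXC10, had log2 fold changes from -0.069 to 0.24 and edgeR adjusted p from 0.451 to 0.836. HOXC4 and HOXC6 share 484 exonic bases on the strand, 17.8% of HOXC4.

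In HOXD, only HOXD11 among the 8 tested members passed the test. HOXD11, which with HOXA11 forms the forearm bones, showed 2.28, 2.32 and 2.23 CPM in DMSO and 1.80, 1.68 and 1.87 CPM in PARGi. The groups were separate, with a log2 fold change of -0.35 (SE 0.119, edgeR adjusted p = 0.0315). The call was lost in 7 of the 15 alternatives, with adjusted p of up to 0.117: under DESeq2, with no filter on low counts, and without any single library other than DMSO replicate 3. HOXD11 shares 452 exonic bases with HOXD10 on the strand, 21.4% of its length. HOXD10 itself, the most abundant gene of the cluster, showed 14.1, 14.6 and 13.9 CPM in DMSO and 14.3, 15.3 and 14.4 CPM in PARGi. Its groups overlapped, with an interval of -3.39% to 11.0% (edgeR adjusted p = 0.504). HOXD9 showed 8.67, 8.62 and 8.12 CPM in DMSO and 7.60, 8.10 and 7.34 CPM in PARGi. HOXD9 was lower in each PARGi library than in each DMSO library by a narrow margin, and passed an unadjusted p (0.0394) but not the adjusted one (edgeR adjusted p = 0.12, log2 fold change -0.14, SE 0.0639). The other 5 tested members, HOXD1, HOXD3, HOXD4, HOXD8 and HOXD12, had log2 fold changes from -0.46 to -0.0091 and edgeR adjusted p from 0.355 to 0.963.

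The 3 paralogues of group 11 were all called lower, HOXA11, HOXC11 and HOXD11. Of these only the HOXA11 call held in all 15 alternatives, while HOXC11 was lost in 5 and HOXD11 in 7. In group 9, HOXB9 rose, HOXA9 fell, and HOXC9 and HOXD9 did not pass the test. In group 13, HOXA13 and HOXC13 fell (calls lost in 3 and 8 of 15 alternatives), HOXB13 did not pass, and HOXD13 was not tested. HOX genes that do not overlap share little exact sequence: of the 50-base words of any HOX gene, at most 0.372% (HOXD3) recurred in such a gene.

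Among the 18 listed non-coding RNAs of the clusters, 11 could be tested, 1 fell and 0 rose (9.09% called), with a median log2 fold change of -0.12. Of all 20409 tested genes 24.3% were called, but 14504 of them are protein-coding, with 29.8% called. So 24.3% is not a share matched to non-coding RNAs, and the share over tested non-coding genes alone was not computed. HOXA11-AS, the antisense neighbour of HOXA11, showed 1.182, 1.272 and 1.263 CPM in DMSO and 0.817, 0.906 and 0.858 CPM in PARGi. It was lower in all 3 PARGi libraries than in any DMSO library, as HOXA11 was (log2 fold change -0.52, SE 0.164, edgeR adjusted p = 0.0217). The call was lost under DESeq2 and without DMSO replicate 3, PARGi replicate 1 or PARGi replicate 3, with adjusted p of up to 0.0604. HOTAIR, a long RNA of the HOXC cluster and per kilobase the most abundant of the list at 6.44 CPM, had a log2 fold change of -0.091 and did not pass (edgeR adjusted p = 0.168). HOXD-AS2, at 2.59 CPM per kilobase, did not pass either (edgeR adjusted p = 0.833).

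Of the 9 TALE cofactors, the homeodomain partners of HOX proteins, 2 fell and 0 rose (median log2 fold change -0.029). That is 22.2% called, beside 24.3% of all tested genes and 29.8% of protein-coding ones. MEIS1 showed 45.1, 42.4 and 38.7 CPM in DMSO and 34.9, 34.6 and 33.9 CPM in PARGi, without overlap (log2 fold change -0.29, SE 0.0424, edgeR adjusted p = 1.9e-05). The MEIS1 call held in all 15 alternatives. The most abundant cofactors per kilobase, MEIS3 at 21.5 and PBX2 at 21.3 CPM per kilobase in DMSO, did not pass, with edgeR adjusted p = 0.0771 and 0.539.

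Of 25 Polycomb genes, 3 rose and 7 fell (40% called, beside 24.3% of all tested genes and 29.8% of protein-coding ones, median log2 fold change -0.025). Of the rises, the MTF2 call was lost in 8 of 15 alternatives and the CBX6 call in 6. The BMI1 fall was lost in 6, and the other Polycomb calls held in all 15. PHC2, a subunit of Polycomb repressive complex 1, rose from 114 ± 1.88 CPM (SD, n = 3) to 135 ± 1.58 CPM (log2 fold change 0.25, edgeR adjusted p = 1.23e-07). CBX2, a subunit that reads the methylated histone, fell from 81.3 ± 2.58 to 71.1 ± 2.22 CPM (log2 fold change -0.20, edgeR adjusted p = 3.67e-05). SCMH1, a further Polycomb protein, fell from 63.7 ± 2.05 to 56.3 ± 0.707 CPM (log2 fold change -0.18, edgeR adjusted p = 9.62e-05). So members of the same complex went both ways, while RING1, the most abundant of the list at 50.4 CPM per kilobase in DMSO, did not pass (edgeR adjusted p = 0.992). Of 18 MLL and other activating factors, 1 rose and 1 fell (median log2 fold change -0.0036). That is 11.1% called, beside 24.3% of all tested genes and 29.8% of protein-coding ones. DPY30, a subunit of the methyltransferase complexes, rose by 0.10 on the log2 scale (edgeR adjusted p = 0.0212), and ASH1L, a histone methyltransferase, fell by 0.095 (edgeR adjusted p = 0.0138). Either call was lost in at least 1 alternative: DPY30 with upper-quartile scaling and without DMSO replicate 2, PARGi replicate 1 or PARGi replicate 3 (adjusted p of up to 0.087), ASH1L without PARGi replicate 1 (0.106). WDR5 and AFF4, the most abundant per kilobase at 31.3 and 22.4 CPM in DMSO, did not pass, with edgeR adjusted p = 0.126 and 0.695.

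Retinoic acid switches on anterior HOX genes through its nuclear receptors. Of 18 listed genes of this pathway, 15 were tested, 4 rose and 3 fell (median log2 fold change 0.088). That is 46.7% called, beside 24.3% of all tested genes and 29.8% of protein-coding ones. RARA, a retinoic acid receptor, rose from 143 ± 3.11 to 160 ± 0.567 CPM (log2 fold change 0.16, edgeR adjusted p = 4.26e-05). STRA6, which takes up retinol, rose from 36.1 ± 1.33 to 41.8 ± 0.849 CPM (log2 fold change 0.21, edgeR adjusted p = 8.69e-05). CRABP2, a carrier of retinoic acid and the most abundant of the list at 60.8 CPM per kilobase in DMSO, did not pass (edgeR adjusted p = 0.477). Of the 6 ParaHox and CDX genes, 2 were tested, with 0 called and 0 at an unadjusted p under 0.05 in edgeR, and CDX2 stood at 2.22 CPM in DMSO.

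Of 15 genes listed at the borders of the clusters, 10 were tested, 3 rose and 2 fell (median log2 fold change 0.044). That is 50% called, beside 24.3% of all tested genes and 29.8% of protein-coding ones. CBX5, beside HOXC, rose by 8.27% (log2 fold change 0.11, edgeR adjusted p = 0.00118), and LNPK, beside HOXD, by 11.7% (0.16, edgeR adjusted p = 0.00197). SKAP1, beside HOXB, fell from 1.05 ± 0.182 to 0.664 ± 0.0828 CPM (log2 fold change -0.64, edgeR adjusted p = 0.0175). CALCOCO2, also beside HOXB, rose by 0.10 on the log2 scale (edgeR adjusted p = 0.0202), so the called genes at the HOXB border went both ways. The CALCOCO2 call was lost with upper-quartile scaling and without DMSO replicate 2, PARGi replicate 1 or PARGi replicate 3, with adjusted p of up to 0.0846. The SKAP1 call was lost without DMSO replicate 1, PARGi replicate 1 or PARGi replicate 3, with adjusted p of up to 0.113. ATP5MC2, the most abundant of the list at 32.2 CPM per kilobase in DMSO, fell by 0.092 on the log2 scale (edgeR adjusted p = 0.0192). It was lost without DMSO replicate 1, PARGi replicate 1 or PARGi replicate 2, with adjusted p of up to 0.159. MTX2, beside HOXD, followed at 21.8 CPM per kilobase and did not pass (edgeR adjusted p = 0.153).

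**Figure D5:**
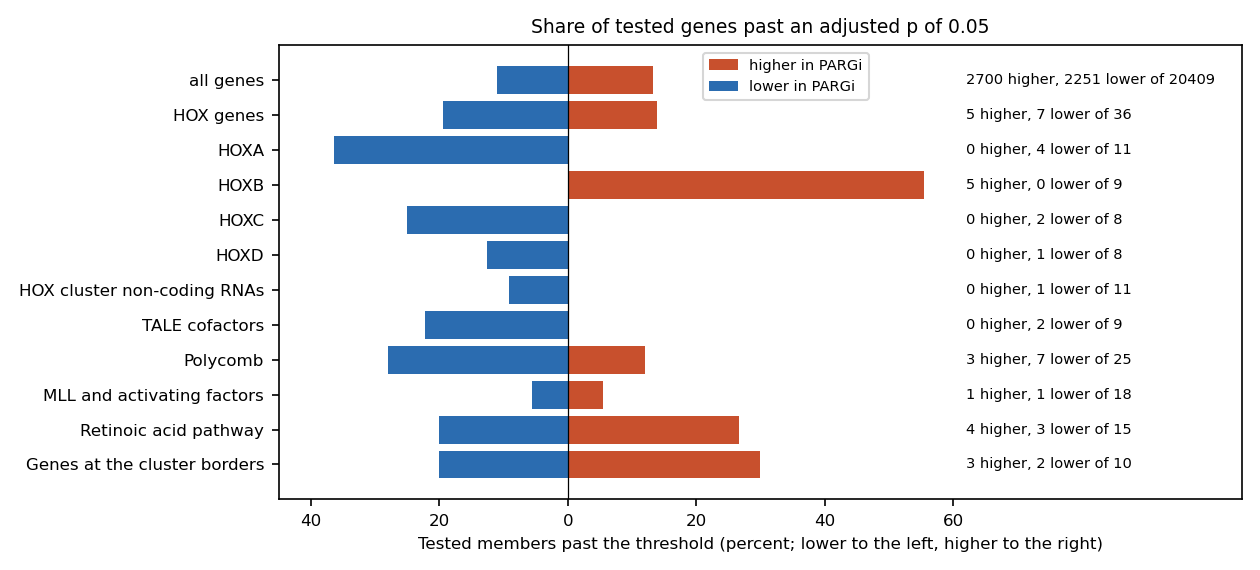
Percentage of the tested members of each list past an adjusted p of 0.05, lower in PARGi to the left and higher to the right, beside all tested genes. HOXB has 5 of 9 tested members higher and 0 lower, and HOXA 4 of 11 lower and 0 higher. Of all tested genes 13.2% were higher and 11.0% lower. Of the 14504 tested protein-coding genes, not drawn here, 2547 were higher and 1769 lower.

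Below the counts needed for a test were HOXB1, HOXC12 and HOXD13. HOXB1 had 0, 2 and 1 counts in DMSO and 0, 2 and 0 in PARGi, under the floor of 3 counts. HOXC12 had 4, 11 and 9 counts in DMSO and 1, 0 and 3 in PARGi, so its PARGi libraries were below its DMSO libraries. HOXD13, a digit gene, had 5, 4 and 3 counts in DMSO and 3, 5 and 8 in PARGi. A floor of 3 counts came to 0.0373 CPM in the deepest library, and covers counting error alone.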

How the data were processed

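The deposited values were whole-number read counts per gene, 1 column per library, not normalised. Per the submitters' processing notes, cutadapt 1.18, STAR 2.7.3a, SAMtools 1.9, deepTools and DESeq2 were used with hg38; the annotation release and the counting of overlapping genes are not given in the sources used here. Libraries came from the TruSeq Stranded Total RNA kit, per the labels' protocols. Of 201 genes lying inside an abundant gene on the opposite strand, the median was 25 counts against 40982 for the partners, so counts were taken as stranded. Symbols were found for 60507 of 60708 identifiers. Positions and exonic lengths came from GENCODE 29 on GRCh38, which held 58440 of them. 0 rows named no gene.

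The test was edgeR 4.0.16 (R 4.3.3): low counts were removed with filterByExpr, libraries were scaled by TMM, and glmQLFit with glmQLFTest (two-sided) compared the treatments in all 6 libraries. P-values of the 20409 tested genes were adjusted by Benjamini-Hochberg, and 0.05 was the threshold. DESeq2 1.42.0 and limma-voom (limma 3.58.1), 2 other scalings, 2 other filters, protein-coding genes alone, robust dispersions, the replicate block and each library left out were the 15 alternatives. The code was tested on simulated counts. CPM are TMM-scaled. The common biological coefficient of variation was 2.70%. Depth was 60286931 to 80605145 counts per library. No libraries of a group were duplicates: their counts differed by 2.27 to 6.10 times the sampling variance.

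The members and lists were chosen with earlier results of these data known. Values in every library are given for called HOX genes, the 2 most abundant per kilobase of each cluster and those past an unadjusted p of 0.05 alone. Of each other list, up to 3 called genes with the smallest p and up to 2 more by level are named. HOXB1, HOXB13, HOXC12, HOXD13, RUNX2, SPARC, ALPL, KRT14, CDH1, MTF2, CBX6, BMI1 and CALCOCO2 are given beside these and were chosen after their values were seen. A few genes that this rule names are not reported here.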

Additional observations from a re-analysis of the deposited data

How the results depend on the processing

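Of the 12 HOX calls, 7 (HOXA7, HOXA9, HOXA11, HOXB3, HOXB5, HOXB6 and HOXB9) held in all 15 alternatives, and 0 of the 12 changed direction. With DESeq2, 4 HOX genes were called lower in place of 7. Leaving out 1 library gave 7 to 12 HOX calls, 4 to 5 higher and 3 to 7 lower, a median HOX log2 fold change of -0.078 to -0.014, and 3607 to 4848 genes called across the whole table. With upper-quartile scaling the log2 difference of the HOXB sum was 0.18 (0.178) in place of 0.20. Per kilobase of exon not shared on the strand, the DMSO shares were 41.5% for HOXB, 33.5% for HOXC and 11.7% for HOXD. Among the 24 uncalled HOX genes, 6 changed sign in at least 1 alternative: HOXD1 with limma-voom (0.048), and with 1 library left out HOXD1 (-0.32 to 0.18), HOXA2 (-0.13 to 0.47), HOXD4 (-0.69 to 0.19), HOXD8 (-0.047 to 0.047), HOXB13 (-0.084 to 0.0021) and HOXC6 (-0.093 to 0.020). Of the 33 called genes of the other lists, markers included, 19 held in every alternative that tested them. The cause of these shifts was not tested; leave-one-out fits have fewer samples. Same-numbered DMSO and PARGi libraries showed no clear shared deviation from their group means (correlations -0.00585, 0.0157 and -0.00784). This cannot show whether they were prepared together, and no label says what the replicate number marks. With the replicate block 4553 genes and 11 HOX genes were called, 5 higher and 6 lower. HOX genes under about 0.5 CPM had intervals too wide to show changes of the size seen in the called genes.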
